A study of Homo sapiens with 519 samples.

Results

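Tioguanine (spelled TIOGUANINE in the labels), Fludarabine and Azauridine are antimetabolites, small molecules that resemble the bases or nucleosides from which cells build nucleic acids. Their wells were taken by compound name from the first of the experiments in the series, in which SK-N-BE(2) cells, an established human neuroblastoma line with an amplified MYCN gene, received 1 of 90 compounds or a control for 24 h. Each compound was given to 1 well on each of 2 plates, so the 3 antimetabolites account for 6 of the 192 wells of that experiment and of the 519 samples of the series. The labels give tioguanine at 1, azauridine at 10 and fludarabine at 2, with no unit, and the design text says that every compound was used near its own 20% inhibitory level, so compound and concentration cannot be told apart in any comparison between them. The controls were 8 wells with the solvent DMSO, 4 on each plate, and 4 further wells carried no DMSO. RNA was read by PLATE-seq, a pooled method that tags transcripts at the 3′ end, in bulk lysates, so fewer cells of a kind and less RNA per cell cannot be told apart. Nothing in the labels says that the wells of the 2 plates came from separate cultures, so p-values measure the spread between wells, which may be technical.

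Tioguanine is guanine with its oxygen replaced by sulfur, a purine base. The salvage enzyme HPRT1 converts it to a nucleotide, which is built into DNA and RNA, and mismatch repair recognises the thioguanine in DNA. Fludarabine is a purine nucleoside, an adenosine analogue with arabinose as its sugar and a fluorine on the base. The kinase DCK activates it, and its triphosphate inhibits DNA polymerases and ribonucleotide reductase. Azauridine is a pyrimidine nucleoside, uridine with a ring carbon replaced by nitrogen. Its phosphate blocks the last step of UMP synthesis, which is carried out by UMPS after CAD and DHODH have built the ring. Mycophenolate mofetil, used here for comparison only, inhibits IMPDH2 and so depletes guanine nucleotides.

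The 6 antimetabolite wells held between 592855 and 2128084 gene counts, against 1683983 to 2607422 in the DMSO wells and 38670 to 3958909 over all 192 wells. The shallowest of the 6 was fludarabine on plate 2. Levels differed between the plates for many genes, so DMSO values are given by plate, in CPM, the share of a library's counts on a fixed scale, after trimmed-mean scaling. Spike-in RNA was counted over 100 times in 97 wells, among them both azauridine, both fludarabine and 2 DMSO wells, and 29 times or fewer in the other 95, among them both tioguanine and 6 DMSO wells. The neuroblast markers HAND2 (90.2 to 192 CPM) and GATA3 (65.4 to 121 CPM) were present in every DMSO well, while DBH reached only 4.56 CPM. Of 15 markers of other cell types, 9 were at 0 in all DMSO wells and 11 in both tioguanine wells. Their summed level was 461 to 605 CPM in DMSO wells, 216 to 223 in tioguanine, 330 to 421 in fludarabine and 486 to 702 in azauridine, and was mostly COL1A1, a collagen gene.

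DDIT3 encodes CHOP, a transcription factor of the integrated stress response. It lies at chr12:57516588-57520517 (GRCh38.p14). It stood at 198 CPM on plate 1 and 325 on plate 2 in tioguanine, at 18.1 and 17.2 in fludarabine and at 23.2 and 35.2 in azauridine. The 8 DMSO wells ran from 16.9 to 37.0 CPM, with a median of 29.2. Only the tioguanine wells lay above the DMSO range. Changes were tested with edgeR's quasi-likelihood test over all 192 wells, with the plate as a block and Benjamini-Hochberg adjustment over all genes. The fitted log2 change from DMSO was 3.27 ± 0.24 (SE, n = 2 and 8 wells, adjusted p = 3.48e-22) in tioguanine. It was -0.49 (95% interval -1.33 to 0.34) in fludarabine and 0.13 (-0.52 to 0.77) in azauridine, and neither passed the test. Tioguanine had the third highest DDIT3 change of the 90 compounds, azauridine ranked 58 and fludarabine 86.

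CDKN1A, the cell cycle inhibitor p21, was low throughout. It was at 4.59 and 17.5 CPM in tioguanine, 9.67 and 13.8 in fludarabine and 6.54 and 13.3 in azauridine, against 5.20 to 11.9 CPM in DMSO wells. The log2 changes were 0.47 (-0.62 to 1.56), 0.59 (-0.59 to 1.77) and 0.30 (-0.68 to 1.28). The intervals are wide, and none of the 3 changes passed the test. PCNA, the sliding clamp of DNA replication, was at 80.4 to 104 CPM in DMSO wells of plate 1 and at 32.9 to 52.2 on plate 2. Tioguanine gave 83.6 and 13.9 CPM, fludarabine 90.9 and 31.0, and azauridine 72.6 and 22.8. All 3 compounds lay below the DMSO wells on plate 2, and no log2 change passed the test (-0.66, -0.20 and -0.61).

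**Figure D1:**
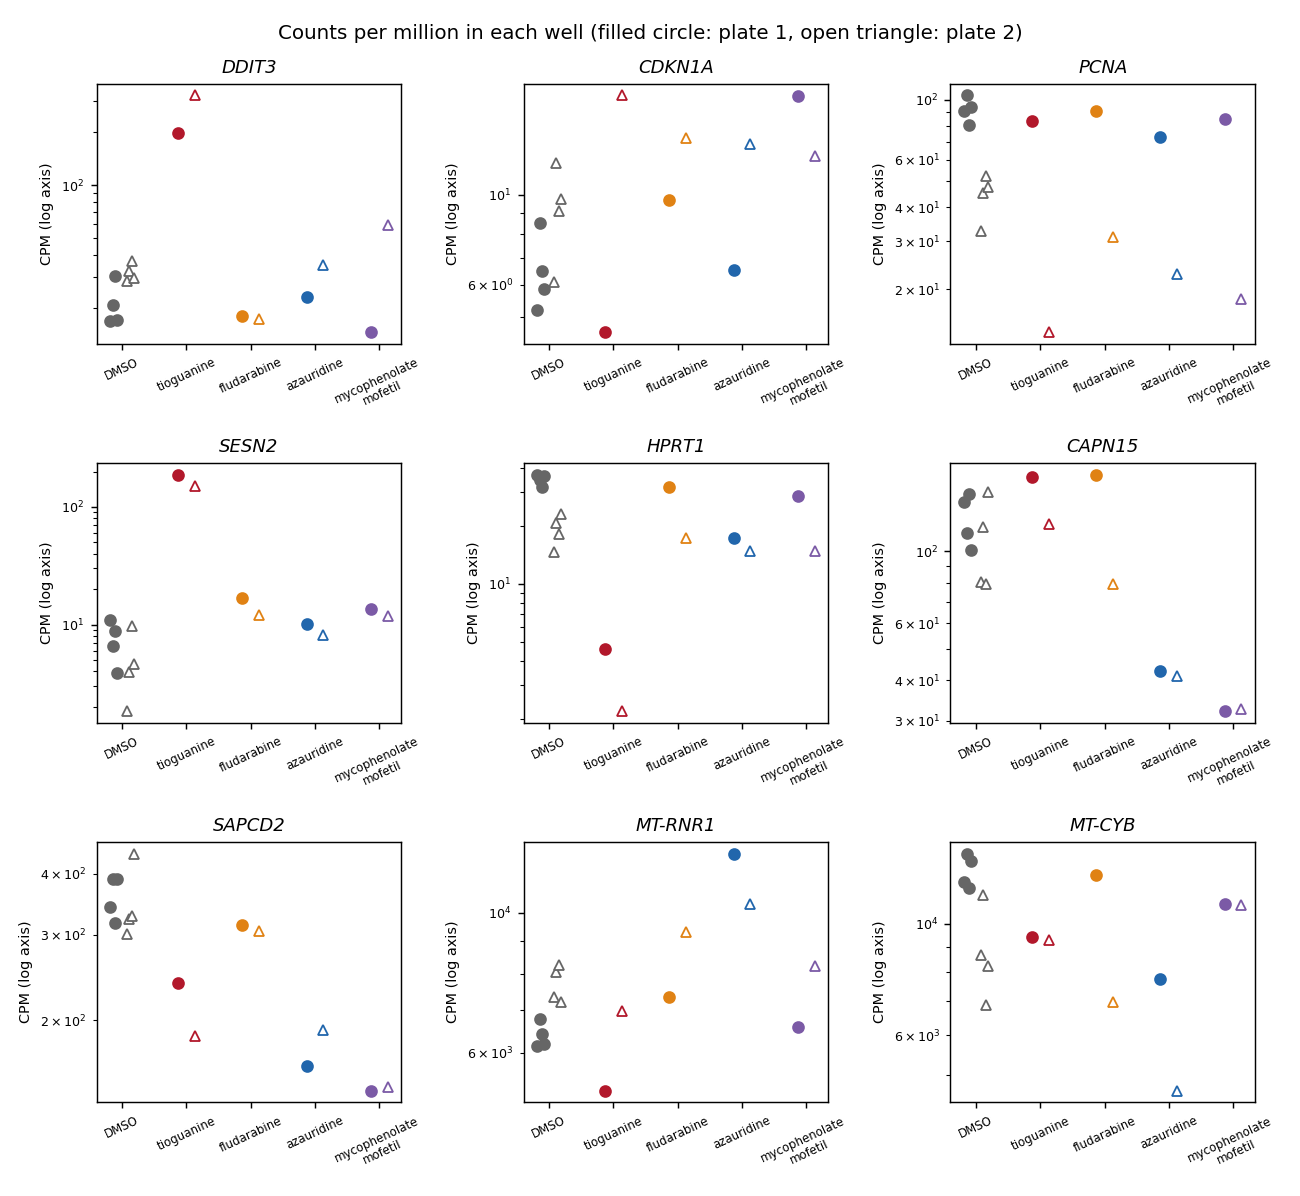
CPM on a log axis in every DMSO, tioguanine, fludarabine, azauridine and mycophenolate mofetil well for 9 genes, with plate 1 as filled circles and plate 2 as open triangles. DDIT3 and SESN2 are high in both tioguanine wells, and CAPN15 is low in both azauridine and both mycophenolate mofetil wells.

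Tioguanine changed many transcripts. Of 13438 genes tested, 1321 passed the threshold of an adjusted p of 0.05 (9.83%), 620 of them higher (4.61%) and 701 lower (5.22%), and 1051 of the 1321 differed by 2-fold or more. Relative-log-expression scaling in place of trimmed means moved the median over all genes from -0.10 to 0.03, a shift of 0.131, and gave 873 higher and 478 lower genes. The rise was led by genes of the integrated stress response, in which phosphorylation of eIF2α slows translation while the transcription factor ATF4 is made and switches on amino acid transport, amino acid synthesis and stress genes. Of 25 ATF4 response genes, 20 rose and 0 fell, all 25 fitted changes were positive, and their median log2 change was 2.17, against -0.10 over all genes tested. In fludarabine and azauridine 0 of the 25 passed the test, with 2 and 3 at an unadjusted p under 0.05 and medians of -0.15 and -0.18.

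SESN2, a stress sensor that restrains mTORC1, stood at 188 and 150 CPM in the tioguanine wells. The DMSO wells held 1.83 to 10.8 CPM with a median of 5.55, the azauridine wells (10.1 and 8.08) lay in that range, and the fludarabine wells (16.8 and 12.1) lay just above it. Its log2 change in tioguanine was 4.70 ± 0.31 (adjusted p = 3.1e-25), the smallest p of all genes. CHAC1, which degrades glutathione, was at 181 and 48.9 CPM against 2.44 to 9.75 in DMSO wells (log2 change 3.81 ± 0.34). Both wells were far above the controls, with the plate 1 well the higher. DDIT4, another inhibitor of mTORC1, showed the same order, at 617 and 124 CPM against 31.7 to 47.1 and 12.0 to 34.0 CPM in DMSO wells of the same plates (3.54 ± 0.30). STC2, a secreted glycoprotein, was at 222 and 123 CPM against 10.2 to 26.4 (3.11 ± 0.26). ADM2, a peptide of the adrenomedullin family, had the largest rise among genes reaching 30 CPM, at 77.2 and 78.8 CPM against at most 5.20 (5.04 ± 0.42).

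Other members were the factors ATF3 (1.76), CEBPG (1.29) and ATF4 itself (1.53), the pseudokinase TRIB3 (3.05), PPP1R15A, the subunit that directs dephosphorylation of eIF2α (2.59), the amino acid transporters SLC7A5 (2.22), SLC3A2 (2.69), SLC7A11 (1.84) and SLC6A9 (3.84), and asparagine synthetase ASNS (1.73). All of these log2 changes passed the test. The 5 members that did not were CEBPB, SLC7A1, VLDLR, CARS and ALDH1L2. GDF15 (6.43 and 2.19 CPM) and NUPR1 (5.51 and 3.65 CPM) passed it at low levels, with GDF15 at 0 in every DMSO well and so at least 24.5-fold higher, against a floor of 3 counts over the DMSO group. With GDF15 at that bound the list's median was also 2.17.

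**Figure D2:**
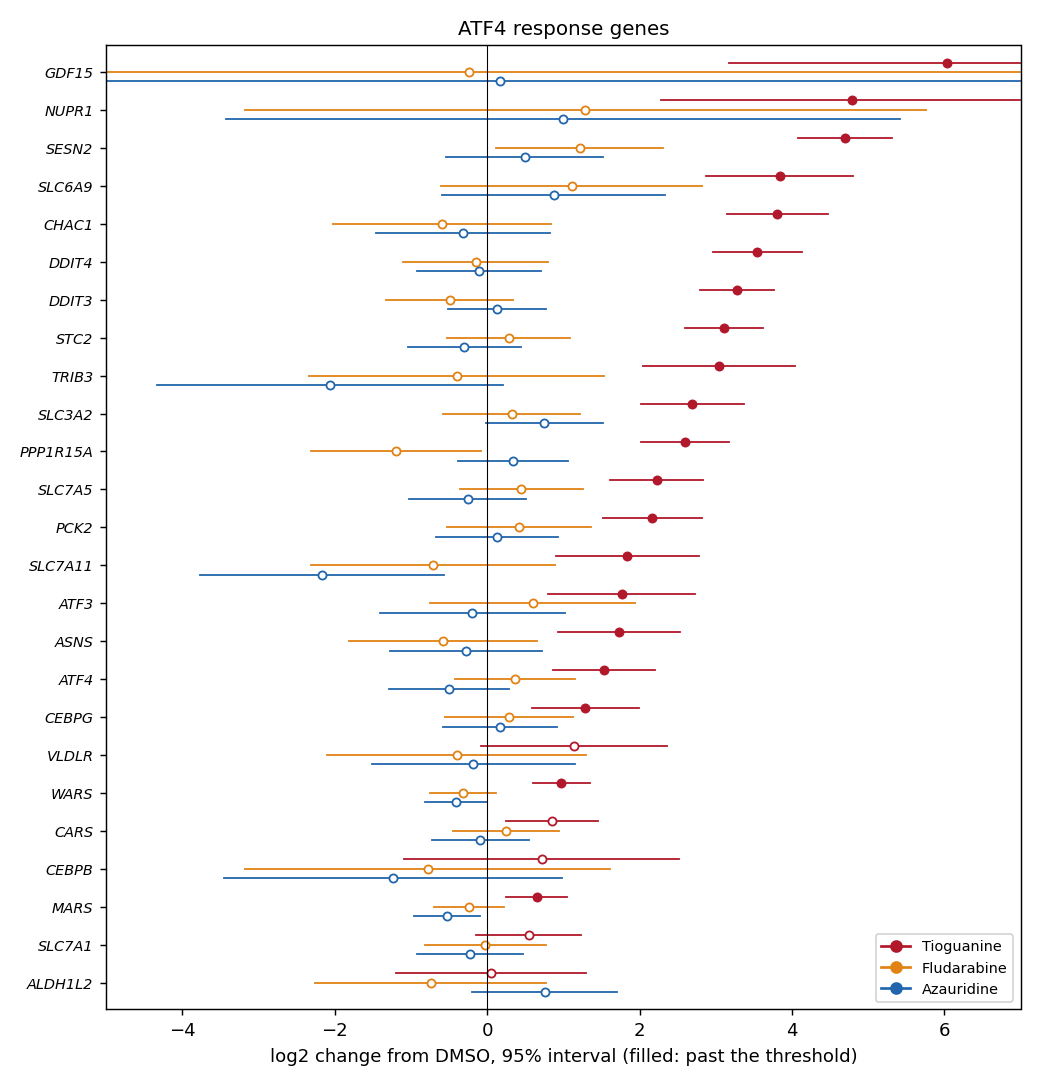
Fitted log2 change from DMSO with its 95% interval for the 25 ATF4 response genes in tioguanine, fludarabine and azauridine, ordered by the tioguanine change. Filled points pass the threshold, which 20 tioguanine changes and no change of the other compounds do, and intervals are drawn only within the axis.

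ATF4 binds DNA with C/EBP partners at a composite element. The letters TGATGNAA were searched on both strands in RefSeq promoter windows (GRCh38.p14, 250 bases before to 50 after the start), and 22 of the 25 ATF4 response genes had a window. The letters occurred in 7 of these 22 (31.8%), in 160 of the 10110 tested genes with a window (1.58%) and in 1003 of all 27305 windows (3.67%). They occurred in 19 of 504 windows of genes higher in tioguanine (3.77%) and in 6 of 571 windows of genes lower (1.05%). The list holds known ATF4 targets, so its share is a description. The 3 stretches below are among those before the start of a gene in the list, on the gene's strand, with the matching letters in capitals. Each is shown because it places the element in front of a gene that rose in tioguanine. They lie at chr15:40953236-40953295, chr7:97872443-97872502 and chr1:212565190-212565249, in the order printed.
CHAC1: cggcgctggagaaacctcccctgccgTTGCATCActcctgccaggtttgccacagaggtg
ASNS: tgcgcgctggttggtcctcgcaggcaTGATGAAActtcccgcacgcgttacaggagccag
ATF3: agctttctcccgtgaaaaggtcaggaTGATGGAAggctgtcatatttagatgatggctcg

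Some genes of nucleotide supply fell in tioguanine. Of 12 de novo purine synthesis genes 3 fell and 0 rose, beside 5.22% lower and 4.61% higher over all genes, and 0 passed with either tioguanine well left out. All 12 fitted changes were negative, and the median was -1.20. PAICS, which closes a middle stretch of the pathway, was at 172 and 118 CPM against 325 to 352 CPM on plate 1 and 169 to 250 on plate 2 in DMSO (-0.94 ± 0.26, adjusted p = 0.00953). ADSL (-1.19 ± 0.32) and ATIC (-1.23 ± 0.41), which act after it, were the others that passed. HPRT1, the enzyme that activates tioguanine, was at 4.59 and 2.19 CPM, from 5 and 3 counts, against 31.8 to 36.8 and 14.6 to 22.9 CPM in DMSO wells. Both tioguanine wells lay far below the controls of their plate (-2.98 ± 0.56, adjusted p = 4.16e-05). In the purine salvage and drug handling list, 3 of 15 fell and 0 rose, the others being ADK, adenosine kinase (-1.05), and SLC29A1, a nucleoside transporter (-1.11). In azauridine (17.3 and 14.7 CPM) and fludarabine (31.6 and 17.2 CPM) HPRT1 did not pass the test.

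The 2 CTP synthases CTPS1 (-1.35) and CTPS2 (-1.62) were the members of the 6-gene de novo pyrimidine list that fell, and 0 rose. Over all genes tested 5.22% were lower and 4.61% higher. The ribonucleotide reductase subunits RRM1 (58.8 and 42.3 CPM; -1.06 ± 0.28) and RRM2 (45.0 and 42.3 CPM; -1.33 ± 0.29) also fell, RRM2 against 78.5 to 145 CPM in DMSO wells. TYMS, thymidylate synthase (-1.43), fell as well. CTPS1, CTPS2, RRM1, RRM2 and TYMS each lost the call with at least 1 tioguanine well left out. The one-carbon genes differed among themselves. SHMT2 (194 and 268 CPM against 40.6 to 67.9) and MTHFD2 (224 and 211 CPM against 25.8 to 82.5), both mitochondrial enzymes, rose by 2.25 ± 0.25 and 2.19 ± 0.29, and the serine synthesis genes PHGDH (1.05) and PSAT1 (1.32) rose with them. MTHFD1, a cytosolic enzyme, fell by 1.66 on the log2 scale. The cytosolic SHMT1 (-1.35) and the mitochondrial MTHFD1L (0.26) and MTHFD2L (-0.32) did not pass. PSPH (0.48), the other serine synthesis gene of the list, did not pass either. PSAT1 lost its call with at least 1 tioguanine well left out. SHMT2, MTHFD2 and the serine enzymes are also known ATF4 targets.

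**Figure D3:**
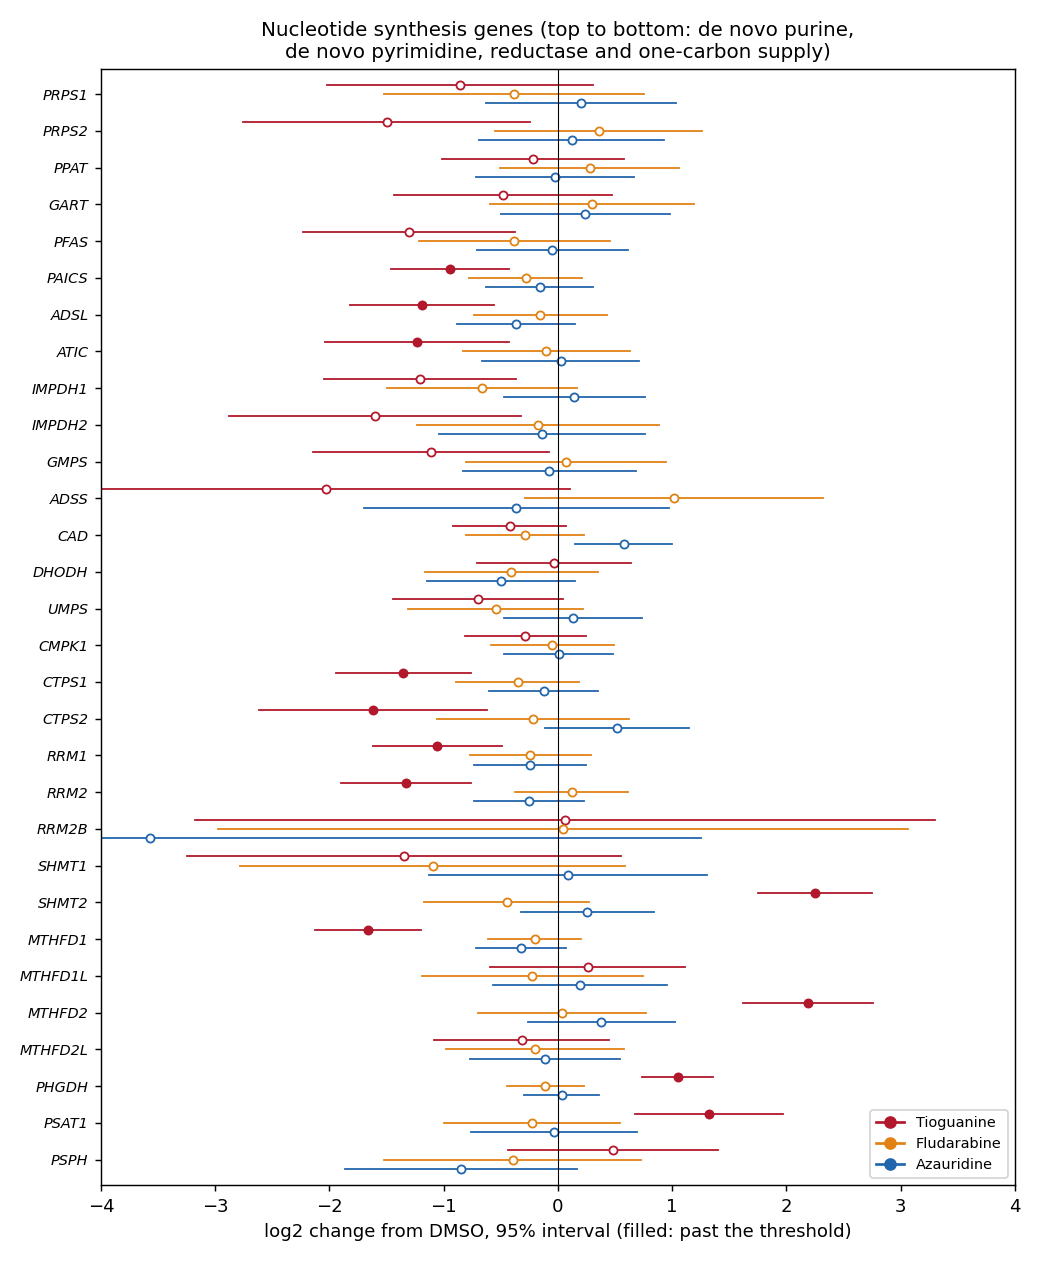
Fitted log2 change from DMSO with its 95% interval for genes of de novo purine synthesis, de novo pyrimidine synthesis and ribonucleotide reductase and one-carbon supply in the 3 antimetabolites. Filled points pass the threshold, all of them in tioguanine, and intervals are drawn only within the axis.

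In tioguanine MDM2, a ubiquitin ligase (1.81 ± 0.55), and the kinase gene PLK3 (1.78 ± 0.60) rose. Both lost the call with at least 1 tioguanine well left out, and neither passed without the plate block. RPS27L (161 and 129 CPM against 344 to 678; -1.70 ± 0.26) and TIGAR (-2.83 ± 0.94) fell. Of 23 S phase genes 2 fell and 1 rose, close to the 5.22% lower and 4.61% higher over all genes. Without the plate block 0 of them passed. The replicative helicase subunit MCM3 (-1.18 ± 0.19) and the GINS subunit GINS2 (-1.27 ± 0.37) were lower, and the licensing factor CDT1 (0.99 ± 0.25) was higher. Of 24 G2 and mitosis genes 0 passed, with 5 at an unadjusted p under 0.05. Of 18 DNA damage and mismatch repair genes 3 fell and 0 rose, and without the plate block 2 fell. The 3 were BRCA1 (45.0 and 54.0 CPM against 83.9 to 195; -1.44 ± 0.27), FANCD2 (-2.44 ± 0.60) and FANCI (-0.94 ± 0.25), all of the DNA crosslink and break repair pathways. GINS2, CDT1, BRCA1, FANCD2 and FANCI each lost the call with at least 1 tioguanine well left out.

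Of 17 tested NRF2 oxidative stress genes 4 rose and 1 fell in tioguanine, led by HMOX1, the heme-degrading enzyme, at 31.2 and 67.1 CPM against 0 to 19.9 (3.08 ± 0.42). SQSTM1, an autophagy receptor, rose by 1.47 ± 0.25. SLC7A11 stands in this list and in the ATF4 list. Of 16 unfolded protein response genes, XBP1 (1.92 ± 0.31) and HERPUD1 (2.01 ± 0.45) rose, PDIA6 (-0.77 ± 0.27) fell, and the median was -0.33. In the cholesterol list 4 of 21 fell and 0 rose, among them INSIG1 (-1.90 ± 0.40) and DHCR7 (-1.79 ± 0.41). Of 20 adrenergic identity genes, which mark the sympathetic lineage of neuroblastoma, 4 fell and 0 rose. Among these were HAND1 (-1.26), DDC (-2.31) and CHGA (-0.65), and the summed level of the list was 1550 CPM in each tioguanine well against 2110 to 2840 in DMSO wells. MYCN was at 167 and 247 CPM in tioguanine against 49.6 to 199 in DMSO wells and did not pass the test. Of 22 ribosome biogenesis and MYC target genes 2 fell and 0 rose, 1 of 13 mitochondrially encoded genes fell (MT-ND1, -0.59), 2 of 17 immediate early genes rose (ATF3 and JUN), and of 11 interferon-stimulated genes IFI27 rose (2.04) and OAS3 fell (-1.72). Shares of 2 in 22 or 1 in 13 lie close to the 5.22% lower and 4.61% higher over all genes. None of 11 polyadenylated histone genes passed, with 4 at an unadjusted p under 0.05. SQSTM1, SLC7A11, HERPUD1, PDIA6, INSIG1, DHCR7, DDC, CHGA, MT-ND1, ATF3, JUN and IFI27 each lost the call with at least 1 tioguanine well left out.

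Outside the lists, the largest fall in tioguanine among genes reaching 30 CPM was that of ADAM12, a cell-surface metalloprotease (chr10:126012391-126388477), at 3.68 and 8.02 CPM. The DMSO wells ran from 84.9 to 113 CPM on plate 1 and from 144 to 179 on plate 2 (-4.44 ± 0.42, adjusted p = 9.92e-16). IGFBP5, a binding protein for insulin-like growth factors, was at 3.68 and 2.92 CPM against 41.1 to 71.5 (-4.09 ± 0.53). UQCC2, an assembly factor of respiratory complex III, was at 90.1 and 37.2 CPM against 474 to 525 on plate 1 and 197 to 282 on plate 2 (-2.58 ± 0.27). The myosin kinase gene MYLK (-2.88), HEATR5A (-2.94), the tRNA methyltransferase gene TRMT61B (-2.53) and the kinetochore gene ZWILCH (-2.52) were also among the largest falls. TRMT61B and ZWILCH each lost the call with at least 1 tioguanine well left out. Among the rises, CKS2, a subunit of cyclin-dependent kinases, was at 449 and 58.4 CPM against 9.10 to 34.95 (3.64 ± 0.45), so that its size differed between the wells. The factor ATF5 (3.70) and CCDC168 (4.83) also belonged to the largest rises. RPS3A, a ribosomal protein gene, was at 310 and 120 CPM against 17.5 to 32.2 and 6.09 to 13.7 (3.74 ± 0.26), but it has near-identical pseudogene copies, and its count is uncertain for that reason.

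The 2 tioguanine wells, each set against the DMSO wells of its own plate, resembled each other. Over the 3731 genes with a mean of 30 CPM or more, Pearson's r between the plates was 0.615 in tioguanine, 0.194 in azauridine and -0.126 in fludarabine, as a description across genes, which are not independent replicates. On plate 1, 644 of these genes were past a log2 change of 1 in tioguanine and 672 on plate 2, with 272 past it in the same direction on both, which is 42.2% of the first set and 40.5% of the second. In azauridine the sets held 59 and 124 genes and shared 8, and in fludarabine 102 and 509 and shared 10.

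**Figure D4:**
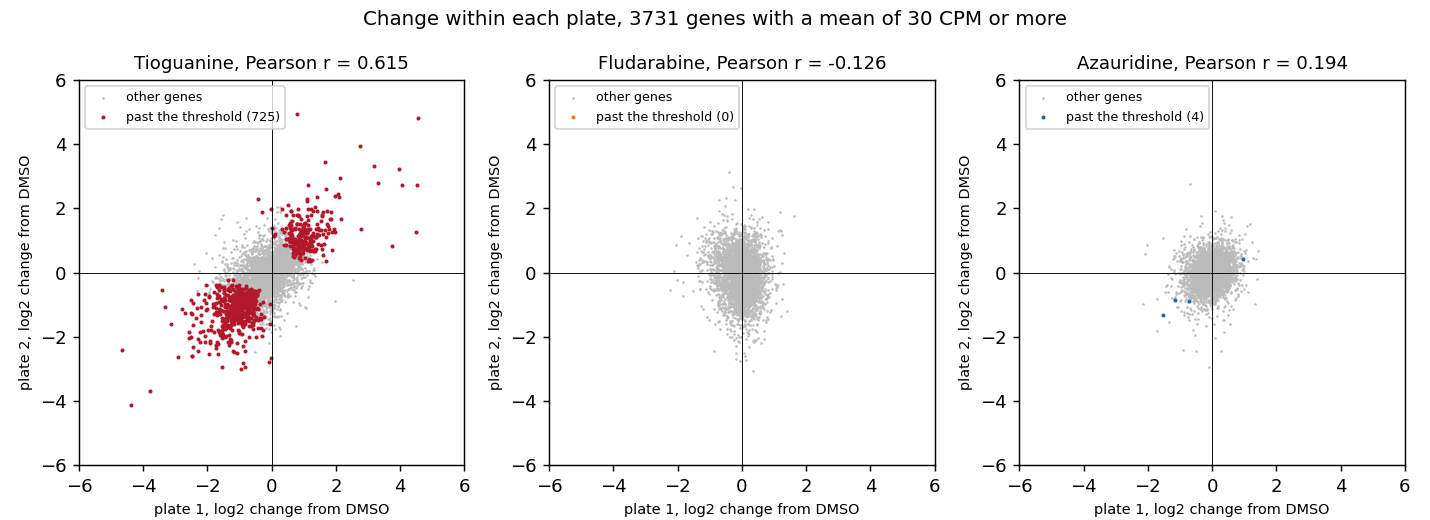
Change from the DMSO wells of the same plate, log2(CPM + 1), on plate 1 (x axis) and plate 2 (y axis) for 3731 genes, with genes past the threshold in colour. The tioguanine cloud runs along the diagonal, with 725 coloured genes, and the fludarabine cloud is wider on plate 2.

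With the plate 1 tioguanine well left out 561 genes passed, and with the plate 2 well left out 354, each time with 14 of the 25 ATF4 response genes higher and 0 de novo purine genes past the threshold. Without the plate block 564 genes passed, 13 of them ATF4 response genes. Of the 72 tioguanine changes that passed in genes named here, 32 passed without each of the 2 wells in turn, and 17 passed in neither case, namely RRM1, TYMS, ADSL, PAICS, ATIC, ADK, GINS2, FANCI, PDIA6, CHGA, SLC7A11, JUN, ATF3, TIGAR, NUPR1, CEBPG and SCN3B, a sodium channel subunit gene. CKS2 had a log2 change of 0.998 (adjusted p = 0.535) without the plate 1 well. The tioguanine wells were both low in spike-in RNA, and with spike-in status as a term, a choice made after the data were seen, 1236 genes passed, 1193 of them among the 1321, with 20 ATF4 response genes higher. Under relative-log-expression scaling TYMS, ATIC, PDIA6, MT-ND1, TIGAR and SCN3B did not pass, 0 ribosome biogenesis genes fell, 2 G2 and mitosis genes and 2 histone genes were higher, and 1 mitochondrially encoded gene, MT-ND5, was higher in place of the fall of MT-ND1.

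Few genes passed the test in azauridine. Of 13438 genes 5 passed the threshold (0.0372%), 1 higher (0.00744%) and 4 lower (0.0298%), and 963 had an unadjusted p under 0.05. CAPN15, a calpain-family gene at chr16:527712-554636, was at 42.8 and 41.3 CPM, from 72 and 87 counts. The DMSO wells ran from 101 to 150 CPM on plate 1 and from 79.5 to 153 on plate 2, so neither azauridine well reached the controls (-1.47 ± 0.27, adjusted p = 0.00364). Azauridine had the second lowest CAPN15 change of the 90 compounds and mycophenolate mofetil, at 32.0 and 32.7 CPM, the lowest. Tioguanine (170 and 122 CPM) and fludarabine (173 and 79.3 CPM) lay within or above the DMSO range of their plate, apart from the plate 2 fludarabine well, which was just below it. SAPCD2, a gene of mitotic spindle orientation, was at 161 and 191 CPM against 300 to 439 (-0.999 ± 0.20, adjusted p = 0.0105). It was also lower in tioguanine (239 and 186 CPM, -0.74 ± 0.20, adjusted p = 0.00659) and stood at 144 and 146 CPM in mycophenolate mofetil. The DMSO wells are shared by these comparisons.

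The other genes that passed in azauridine were mitochondrially encoded, apart from LETMD1. MT-RNR1, the small mitochondrial ribosomal RNA, was at 12390 and 10330 CPM against 6154 to 6777 on plate 1 and 7210 to 8258 on plate 2 (0.71 ± 0.15, adjusted p = 0.0195). Both wells lay above all 8 controls. MT-CYB, which encodes cytochrome b of complex III, was at 7750 and 4651 CPM against 11780 to 13790 and 6890 to 11400 (-0.81 ± 0.18, adjusted p = 0.0401). It was the 1 member of the 13 mitochondrially encoded protein genes that passed, 11 of the 13 fitted changes were negative, and the median was -0.32, against -0.06 over all genes. LETMD1 passed with a log2 change of -5.84 because 1 DMSO well, the first of plate 1, held 408 CPM, while the other 7 held at most 6.18 and the azauridine wells 0 and 1.43.

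Genes of the pathway that azauridine blocks did not pass the test. CAD, the enzyme of the first steps of pyrimidine synthesis, was at 110 and 135 CPM in azauridine. The DMSO wells held 61.5 to 87.0 CPM on plate 1 and 81.6 to 106 on plate 2, both below the azauridine well of the plate (0.58, 95% interval 0.15 to 1.00, adjusted p = 0.467). UMPS, the enzyme it inhibits, was at 31.5 and 46.6 CPM against 28.7 to 55.0 (0.13, -0.47 to 0.74). UCK2, the uridine kinase that activates azauridine, was at 30.9 and 33.3 CPM against 24.4 to 52.2. In the 20 lists, the MT-CYB change was the only call. The list medians ran from -0.45 (markers of other cell types, 3 genes tested) to 0.28 (interferon-stimulated genes), and that of the 24 G2 and mitosis genes was -0.35, with 20 of 24 negative. Few of the azauridine calls held in other fits. With either azauridine well left out 2 genes passed, CAPN15 not among them (adjusted p = 0.274 without the plate 1 well and 0.127 without the plate 2 well), and without the plate block 0 passed. LETMD1 changed by -1.25 (adjusted p = 0.872) without the high DMSO well, MT-RNR1 had an adjusted p of 0.184 with spike-in status as a term, and DESeq2 on the compared wells called 28 genes.

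Few genes passed in fludarabine as well. Of 13438 genes 3 were higher (0.0223%) and 0 lower (0%), and 739 had an unadjusted p under 0.05. RPL21, a ribosomal protein gene with many pseudogene copies, was at 9.03 and 65.5 CPM against 0.573 to 4.26 in DMSO wells (3.70 ± 0.62, adjusted p = 1.84e-04). MTRNR2L11, a near-identical nuclear copy of mitochondrial ribosomal RNA sequence, was at 0 and 128 CPM against 0 to 18.1, and NCALD, a neuronal calcium sensor, at 20.0 and 165 CPM against 10.7 to 20.4 (2.35 ± 0.47). In all 3 the high value was that of the shallow plate 2 well, and the counts there were 38, 74 and 96. RPL21 and MTRNR2L11 are uncertain, since reads can be split among such copies. The 2 fludarabine wells correlated at 0.0208 with each other over genes centred within plate, and 81 wells were closer to the plate 2 well than its own replicate. The 5 wells closest to it held from 602972 to 1538838 counts, and the part of depth in the result was not tested.

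The enzymes on which fludarabine acts did not pass. DCK, its activating kinase, was at 25.1 and 8.62 CPM against 10.3 to 17.9 and 2.29 to 6.18 in DMSO wells of the same plates, higher in both wells (0.96 ± 0.46, adjusted p = 0.877). The plate 2 value is low and comes from the library of 592855 counts. The DCK change in azauridine was of like size (0.86 ± 0.41, adjusted p = 0.665). In fludarabine RRM1 was at 110 and 68.9 CPM and RRM2 at 118 and 117, inside the DMSO ranges or close to them. SCN3B had the smallest p among the lower genes, at 19.3 and 67.2 CPM against 74.4 to 117 and 88.3 to 105 (-1.42 ± 0.34, adjusted p = 0.115). In the 20 lists 0 genes passed, and the medians ran from -0.32 (de novo pyrimidine synthesis) to 0.20 (immediate early genes), against -0.10 over all genes. With the plate 2 fludarabine well left out 0 genes passed, NCALD changed by 0.19 and RPL21 by 2.43 (adjusted p = 1 for both), and MTRNR2L11, with the remaining well at 0, was fitted at -5.20. With the plate 1 well left out 19 genes passed, and DESeq2 called 13, all higher.

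**Figure D5:**
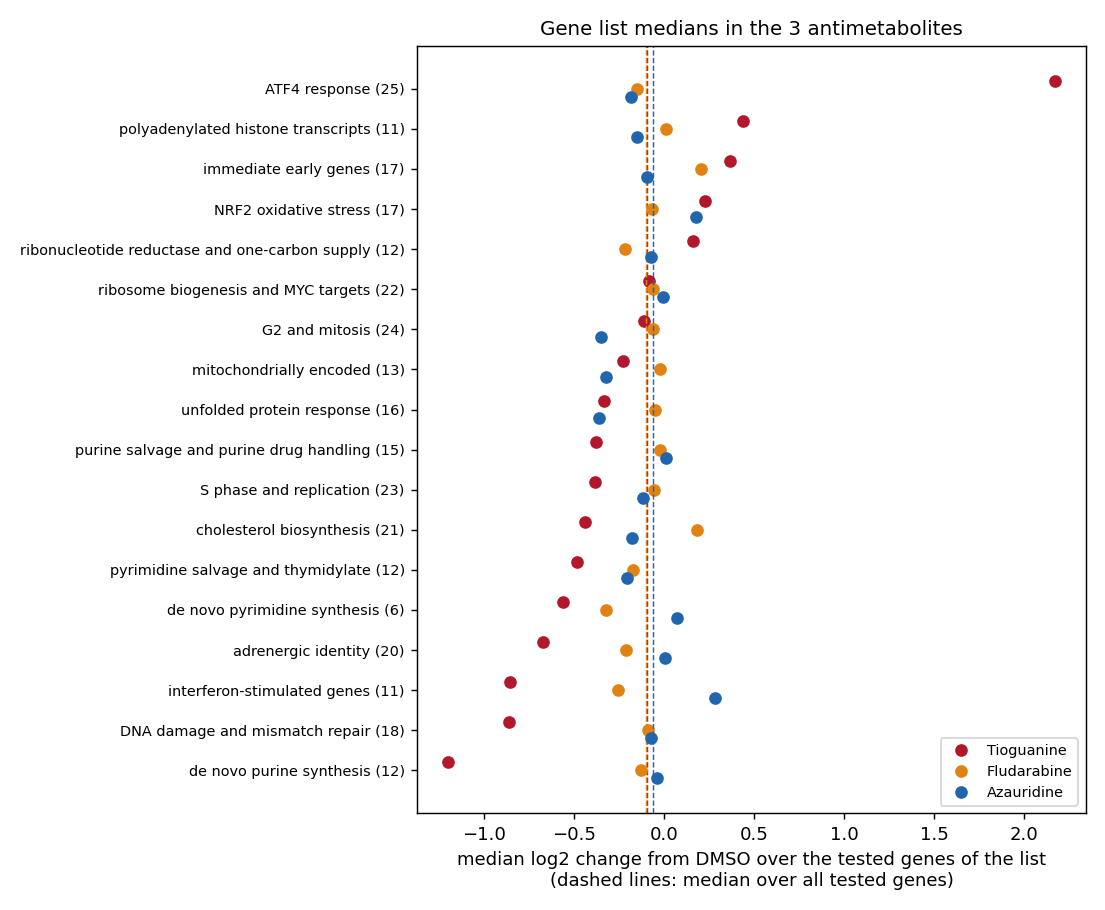
Median fitted log2 change from DMSO over the tested genes of 18 lists (their number in brackets) in the 3 antimetabolites, with dashed lines at the median over all tested genes. Tioguanine medians run from -1.20 in de novo purine synthesis to 2.17 in the ATF4 response, and those of fludarabine and azauridine stay between -0.36 and 0.28.

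The compounds were compared directly in 3 pairs, with p-values adjusted over all genes and pairs together and with concentrations that differ as labelled. Tioguanine, the purine base, and azauridine, the pyrimidine nucleoside, differed in 536 genes (3.99% of 13438). Tioguanine and fludarabine, the 2 purines, of which the first is a base and the second an arabinose nucleoside with a fluorine, differed in 353 (2.63%). Fludarabine and azauridine, the 2 nucleosides, differed in 27 (0.201%). The 3 pairs gave 916 differences, 386 higher and 530 lower in tioguanine over either partner or in fludarabine over azauridine, against 541 and 416 under relative-log-expression scaling. Without the plate block 231 passed. Both tioguanine wells were low in spike-in RNA and both wells of each partner were high. Compound and spike-in status thus coincided in the pairs with tioguanine. With spike-in status as a term 549 passed, 310 for tioguanine and azauridine, 220 for tioguanine and fludarabine and 19 for fludarabine and azauridine. For DDIT3 the log2 difference was 3.15 (2.41 to 3.89) for tioguanine minus azauridine, 3.77 (2.92 to 4.62) for tioguanine minus fludarabine and -0.62 (-1.60 to 0.35) for fludarabine minus azauridine. The first 2 DDIT3 differences passed (adjusted p = 3.56e-10 and 1.17e-10) and the last did not. No pair passed for CDKN1A, where the intervals reach from -1.13 to 1.47, from -1.55 to 1.32 and from -1.09 to 1.66 in the same order, or for PCNA (-0.88 to 0.77, -1.31 to 0.39 and -0.41 to 1.22). The wells do not narrow these differences further.

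Between fludarabine and azauridine, CAPN15 was higher by 1.58 ± 0.33 in fludarabine (adjusted p = 7.68e-04), and it was higher by 1.77 ± 0.32 in tioguanine than in azauridine. SCN3B, at 132 and 178 CPM in azauridine and so above every DMSO well, was lower by 2.06 on the log2 scale in fludarabine (SE 0.38, adjusted p = 1.30e-04). It was also lower in tioguanine (55.1 and 47.4 CPM) than in azauridine. SAPCD2 was higher by 0.81 ± 0.24 in fludarabine than in azauridine (adjusted p = 0.0488), and its tioguanine-minus-azauridine difference of 0.26 (-0.22 to 0.74) did not pass.

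By list, tioguanine was higher than azauridine in 16 of the 25 ATF4 response genes (median 2.04) and higher than fludarabine in 13 (median 2.30), with 0 lower in either pair, and fludarabine and azauridine differed in 0, with 1 at an unadjusted p under 0.05. SHMT2, the mitochondrial one-carbon enzyme, was higher in tioguanine by 1.99 ± 0.36 over azauridine and by 2.70 ± 0.41 over fludarabine, and MTHFD1, a cytosolic enzyme of the folate pathway, was lower by 1.34 and 1.46 on the log2 scale. In the 6-gene de novo pyrimidine list tioguanine was lower than azauridine in CAD, CTPS1 and CTPS2 and differed from fludarabine in 0. HPRT1 was lower in tioguanine than in fludarabine (-2.86 ± 0.68), as was RRM2 (-1.45 ± 0.35), and neither difference from azauridine passed. BRCA1 was lower in tioguanine than in azauridine (-1.65 ± 0.31) and fludarabine (-1.40 ± 0.32). None of the 12 de novo purine genes passed in a pair, with 6 at an unadjusted p under 0.05 for tioguanine and azauridine, 5 for tioguanine and fludarabine and 0 for fludarabine and azauridine.

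The mean of the 2 purine compounds was then set against azauridine. Of 13438 genes 125 passed (0.930%), 33 higher (0.246%) and 92 lower (0.685%) in the purines. Relative-log-expression scaling gave 96, with 42 higher and 54 lower. Since tioguanine is 1 of the 2 compounds averaged, each named gene is given with both. SESN2 (2.46 ± 0.51), STC2 (2.00 ± 0.40), ADM2 (3.49 ± 0.97), DDIT4 (1.81 ± 0.46) and CKS2 (2.75 ± 0.73) passed, and their fludarabine wells (SESN2 16.8 and 12.1 CPM; STC2 23.2 and 27.6; ADM2 2.58 and 6.89; DDIT4 34.2 and 15.5; CKS2 20.0 and 53.4) were far below the tioguanine wells except in the plate 2 well for CKS2. Of the 25 ATF4 response genes 4 were higher and 0 lower. Among the falls, UQCC2 (-1.73 ± 0.23) was at 402 and 122 CPM in fludarabine, below the DMSO wells of each plate, and at 580 and 245 in azauridine. The heat shock co-chaperone DNAJB6 (1.82 ± 0.39) was at 89.1 and 107 CPM in tioguanine, 38.7 and 68.9 in fludarabine, 19.6 and 20.0 in azauridine and 23.8 to 39.0 in DMSO wells.

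CAPN15 (1.68 ± 0.29, adjusted p = 1.42e-04), SCN3B (-1.83 ± 0.30, adjusted p = 3.67e-05) and MT-RNR1 (-0.70 ± 0.17, adjusted p = 0.0158) differed between azauridine and the purines with both purine compounds on the same side. CAD was the 1 of 6 de novo pyrimidine genes that passed. It was lower in the purines by 0.93 on the log2 scale (SE 0.25, adjusted p = 0.0405), at 58.8 and 63.5 CPM in tioguanine and 50.3 and 91.3 in fludarabine against 110 and 135 in azauridine. DDIT3 (1.26 ± 0.38, adjusted p = 0.0835) did not pass. PLK3 was higher and RPS27L (-1.15 ± 0.24) was lower in the mean of the purines. The fludarabine changes from DMSO were 0.24 for PLK3 and -0.20 for RPS27L, and neither passed. Those of tioguanine were 1.78 and -1.70. PLK3 was at 0 in both azauridine wells. Of the 22 differences between purines and azauridine that passed in genes named here, 6 passed without the plate 1 azauridine well, 8 without the plate 2 well and 4 without the plate block, where 10 genes passed in all. A fit of the compared wells alone called 0 genes and DESeq2 27, and CAD passed in neither (adjusted p = 0.328 and 0.465).

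Azauridine and mycophenolate mofetil, which deplete pyrimidine and guanine nucleotides, were labelled at 10 and 7.5. Over genes centred within plate, as a description across genes, the plate 1 azauridine well correlated at 0.281 with the plate 2 well, its closest of all wells, and next at 0.253 with the mycophenolate mofetil well of its plate. For the plate 2 azauridine well the order was the same, at 0.281 and 0.276, with phenothiazine next at 0.268. The plate 2 mycophenolate mofetil well had 4 wells closer to it than azauridine, among them NSC83950 at 0.344. Wells of a plate share its handling. The test found 4 of 13438 genes different (0.0298%), with 1018 at an unadjusted p under 0.05. For CAPN15 the difference was 0.39 (-0.30 to 1.08) and for SAPCD2 0.29 (-0.19 to 0.76), and neither passed. The azauridine-minus-mycophenolate difference was 0.64 (0.25 to 1.03) for MT-RNR1 and -0.87 (-1.30 to -0.44) for MT-CYB, which did not pass after adjustment (0.339 and 0.16). Without either azauridine well, or without the plate block, 0 genes passed, and a fit of the compared wells alone called 57. The 4 wells without DMSO differed from the 8 DMSO wells in 7 genes (0.0521%), which is the count of the solvent comparison made in the same fit. Against the same DMSO wells azauridine gave 5 and fludarabine 3, from 2 wells each. The solvent comparison had 4 wells, so its count and theirs are not on an equal footing. At an unadjusted p under 0.05 there were 753 genes in the solvent comparison, 963 in azauridine and 739 in fludarabine.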

How the data were processed

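The authors deposited whole-number counts per gene for each well. Per the submitters' processing notes the reads were handled with STAR and GRCh38, with no version given; the counting step and its use of strand are not given in the sources used here. Counts of the first experiment were used; the other tables were not used here. The 92 spike-in rows, 0.0766% of counts in wells with over 100 of them and 0.000689% elsewhere, stayed out of library sizes and tests. The 192 wells, in 92 groups, were fitted in edgeR 4.0.16 (R 4.3.3) with the plate as a block, after filterByExpr with a minimum count of 10, and the threshold was an adjusted p of 0.05. CPM values used trimmed-mean scaling. The plate number is a stated replicate: same-plate deviations correlated at a median of 0.593 over 4005 pairs of compounds, with 3992 over 0.1. Alternatives were another scaling, no filter, no block, only the compared wells, the older quasi-likelihood test, DESeq2 1.42.0, single wells left out, a library under 200000 counts left out, and spike-in status.

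The compounds and gene lists were chosen with earlier results of these data known. Named genes are DDIT3, CDKN1A, PCNA, MYCN, enzymes of nucleotide supply, the 8 largest rises and falls that passed, reached 30 CPM and did not overlap between groups within plate (or, with under 5, the smallest p), and the 3 smallest p of each list with 3 or more calls. Further list members, and CAPN15, SAPCD2 and MT-RNR1 outside the azauridine comparison, were named after their values were seen. Some genes that the rule names, and 1 list, are not reported here. The statistics were tested on simulated data.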

Additional observations from a re-analysis of the deposited data

Results flagged for a closer look

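Among the 8 DMSO wells, 96 quantities (named genes and the library total) were examined for a single well far from the rest, and 5 had one. Chance alone gives this in about 1 group in 20. LETMD1 and SSTR2 were named for a small p in azauridine against these same wells, so that share does not apply to them. LETMD1 was at 408.5 CPM in the first well of plate 1, with the next highest well at 6.18, and the azauridine call for this gene rests on that well. SSTR2, a somatostatin receptor gene, was at 648.9 CPM in the third well of plate 2, with the next at 21.95. UMPS, the enzyme that azauridine inhibits, was at 55.0 CPM in the fourth well of plate 2, with the next at 38.0. ASNS, a member of the ATF4 list, was lowest in the first well of plate 2 at 0.609 CPM, with the next at 4.76. NUPR1, of the same list, was at 0.813 CPM in the second well of plate 1 and at 0 in the other 7. With 7 wells at 0, any count in the last well is flagged.

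Outside the comparisons, spike-in RNA exceeded 100 counts in 97 of 192 wells, and the labels do not say which wells received it. The 4 wells without DMSO differed from the DMSO wells in 7 genes.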

How the results depend on the processing

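Numbers are genes past an adjusted p of 0.05, for tioguanine, azauridine and fludarabine against DMSO (1321, 5 and 3), purines against azauridine (125), the 3 pairs (916) and azauridine against mycophenolate mofetil (4). Without the plate block they were 564, 0, 3, 10, 231 and 0. With only the compared wells and the block, azauridine gave 0, purines against azauridine 0, the pairs 112 and the mycophenolate comparison 57. With no filter azauridine gave 25, fludarabine 26 and the mycophenolate comparison 13. The older quasi-likelihood test gave 3, 1 and 0 for these. DESeq2 gave 28 for azauridine, 13 for fludarabine, 27 for purines against azauridine and 261 for the pairs. Adding the wells without DMSO to the controls gave 3 for azauridine. Spike-in status as a term, chosen after seeing the data, gave 6 for fludarabine and 549 for the pairs. The cause of these moves was not tested.

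With single compound wells left out, the counts ran from 354 to 561 for tioguanine, 2 to 2 for azauridine, 0 to 19 for fludarabine, 25 to 85 for purines against azauridine, 282 to 700 for the pairs and 0 to 5 for azauridine against mycophenolate mofetil. A compound left with 1 well was assumed to vary like the other groups. With single DMSO wells left out they ran from 1235 to 1296, 5 to 7 and 3 to 4. Among values past the threshold, only MTRNR2L11 in fludarabine changed sign, to -5.20 without the plate 2 well, against 4.54 without the plate 1 well. Of 1516 recomputed values for 80 genes in tioguanine, 140 lost and 3 gained a call. Of 357 in azauridine 31 lost and 9 gained it, and of 470 in purines against azauridine 128 lost it. Of 323 in fludarabine 7 lost it, not counting the MTRNR2L11 value that changed sign, which did not pass either. The shallow fludarabine well held 592855 counts, which limits the precision of that comparison.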
